A study of Mus musculus with 4 samples.

Results

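The 9 genes described here encode the enzymes that write and erase DNA methylation and factors that act at imprinted loci: Dnmt1, Dnmt3a, Dnmt3b, Uhrf1, Tet1, Tet2, Tet3, Ctcf and Trim28. They were taken by symbol from the 2 mRNA tables, which list 16211 genes, and all 9 were found. Of these, 8 had at least 100 reads in at least 1 library, as had 11412 genes in all, and Tet1 did not. The cells were tumor-initiating hepatocytes (TICs) of the mouse strain C57BL/6, which the labels name as cells able to initiate tumors. The control library came from cells with a control short hairpin RNA (shcont), and the other from cells with a hairpin against the imprinted long noncoding RNA H19 (shH19, genotype H19 knockdown). Both groups shared strain and cell type. The labels do not give the number of animals or clones, the age, the time after hairpin delivery or a batch. Since a single mRNA library and a single small RNA library stand for each hairpin, no difference below has a replicate check and no p-value was computed.

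Methylation of cytosine in CpG is copied after replication by DNMT1, which UHRF1 brings to newly made DNA by binding hemimethylated sites. DNMT3A and DNMT3B place new methylation, while the TET enzymes oxidize 5-methylcytosine as a step toward its removal. At the imprinting control region upstream of H19, CTCF binds the unmethylated maternal copy and insulates Igf2. TRIM28, recruited by zinc finger proteins, helps imprints to persist. Dividing cells need the maintenance pair at every S phase, since methylation that is not copied is diluted.

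H19 itself, on chromosome 7 (GRCm38, 142575530 to 142578146), had 43 reads with the control hairpin and 40 with the hairpin against it, a ratio of 0.931 with a 95% counting interval of 0.589 to 1.46. The targeted gene thus did not bear out the label, and every direction below refers to the library labelled H19 knockdown. The mRNA libraries held 33578868 and 34061172 reads. Of 16 hepatocyte markers 14 were listed and 9 had at least 100 reads, 2 of them above 0 and 7 below. Apob had 37279 and 30259 reads and Alb 129 and 88, while the transcription factors Cebpa (620 and 790) and Hnf4a (2373 and 2764) were higher, and the enzymes Tat and Cps1 were not listed. Of 12 liver progenitor markers 11 were listed, and of the 7 with at least 100 reads 4 were above 0, with Spp1 at 72614 and 73248 reads, Krt19 at 29919 and 39984 and Krt7 at 6162 and 4194. Of the other cell types, 0 of 9 lymphocyte markers were listed, and the 2 of 8 endothelial, 3 of 10 stellate cell and 1 of 6 erythroid markers listed all had fewer than 100 reads. Macrophage markers, of which 5 of 9 were listed and Adgre1, Clec4f, Marco and Itgam were not, summed to 3495 and 2641 reads, most of them from Cd14. Of the 3 with at least 100 reads, Cd14 (3189 and 2417) and Lyz2 (132 and 53) were lower and Cd68 (118 and 140) was higher. The ratio of Lyz2, 0.406, was the lowest of all genes with at least 100 reads. Of all genes with at least 100 reads, 51.9% had log2 ratios (labelled H19 knockdown over control) above 0. All 7 mitochondrially encoded genes with that minimum did, with a median of 0.35. The part of these differences in the values below was not tested. In bulk RNA, a change in the number of cells of a kind and a change in RNA per cell cannot be told apart.

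Most of the set was moderately higher in the library labelled H19 knockdown. At a limit of 1.2-fold (0.26 on the log2 scale) 5 of the 8 genes with at least 100 reads were higher: Dnmt3a, Uhrf1, Dnmt1, Tet2 and Trim28. The same limit was passed upward by 10.3% of all 11412 genes. Dnmt3b, which had few reads, was the 1 member past the limit downward, against 9.89% of all genes. Nearest to the limit were Trim28 at 0.29 inside it and Ctcf at 0.21 outside it. The median log2 ratio of the 8 genes was 0.29 and that of all genes was 0.01, with 6 of the 8 above 0 against 51.9% of all genes. At 1.1-fold 6 members were higher, against 24.6% of all genes, and 1 was lower, against 22.5%. No member reached 1.5-fold, which 1.31% of all genes passed upward and 1.39% downward, or 2-fold, which 0.202% passed upward and 0.105% downward. The 9 genes summed to 26553 and 32492 reads, a ratio of 1.22 (1.203 to 1.242) that is carried mainly by Trim28, Dnmt1 and Uhrf1.

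**Figure D1:**
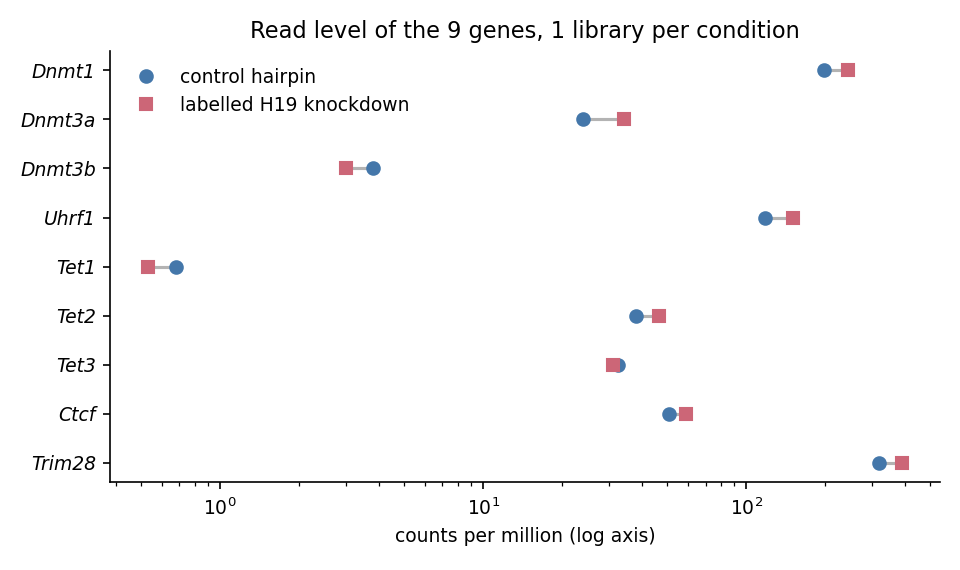
CPM, reads relative to library size scaled by TMM (log axis), of the 9 genes in the control library (circles) and the library labelled H19 knockdown (squares), with 1 library per condition. Trim28 lies highest, at 320.5 and 391, and Tet1 lowest, at 0.680 and 0.532.

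The maintenance pair was well counted and differed in parallel. Dnmt1, on chromosome 9 (20907206 to 20959888), had 6678 control reads against 8267 in the library labelled H19 knockdown. This is a ratio of 1.24 with a counting interval of 1.197 to 1.277. Uhrf1, on chromosome 17 (56303337 to 56323486), had 3979 and 5095 reads, a ratio of 1.28 (1.23 to 1.33). Both genes were therefore higher in the library labelled H19 knockdown by more than counting error, and by nearly the same factor. Uhrf1 had 0.596 reads per Dnmt1 read in the control and 0.616 in the other library, a change of 1.03-fold whose interval, 0.981 to 1.09, includes no change. Among genes of like count, meaning a mean scaled count within a factor of 2, the distance of Dnmt1 from 0 was equalled or exceeded by 6.28% of 1593 genes. For Uhrf1 that share was 3.41% of 2817 genes. This is a rank within these libraries, since the spread between cultures is unknown: the log2 ratios of genes with 1000 to 10000 reads had a standard deviation of 0.170, where counting alone gives 0.045.

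The promoters of Dnmt1 and Uhrf1 are shown because both genes are known targets of E2F, the transcription factor family of S phase entry. RefSeq (GRCm38.p6) windows of 250 bases before to 50 after each start site were found for all 9 genes, 14 windows in all. They were searched on both strands for the E2F words TTTCCCGC, TTTGGCGC, TTTGCCGC and TTTCGCGC and for the palindromic core of the NRF1 site. The E2F words, which can overlap one another, were in 2 of the 14 windows, 1 of Dnmt1 and 1 of Uhrf1, and in 2.26% of all 32851 windows of this length. The NRF1 word was in 2 windows, both of Dnmt1, and in 0.971% of all windows. Capitals mark these words in the Dnmt1 window at chr9:20952574-20952873 (minus strand) and the Uhrf1 window at chr17:56304063-56304362 (plus strand), each printed 5′ to 3′.
Dnmt1: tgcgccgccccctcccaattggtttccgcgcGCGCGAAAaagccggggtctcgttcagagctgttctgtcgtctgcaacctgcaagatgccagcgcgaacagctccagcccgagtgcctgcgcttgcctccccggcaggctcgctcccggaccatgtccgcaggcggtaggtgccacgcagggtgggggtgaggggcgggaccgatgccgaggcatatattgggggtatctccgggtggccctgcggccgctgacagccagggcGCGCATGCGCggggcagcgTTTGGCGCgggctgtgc
Uhrf1: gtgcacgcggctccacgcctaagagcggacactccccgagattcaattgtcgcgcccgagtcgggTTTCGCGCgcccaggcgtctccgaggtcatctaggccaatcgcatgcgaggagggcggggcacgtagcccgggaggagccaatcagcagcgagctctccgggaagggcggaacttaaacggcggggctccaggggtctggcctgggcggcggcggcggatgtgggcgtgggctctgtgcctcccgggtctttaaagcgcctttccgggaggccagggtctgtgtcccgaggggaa
The Dnmt1 window holds TTTGGCGC on the printed strand after the start site and TTTCGCGC on the other strand before it, with the NRF1 word between them. In the Uhrf1 window TTTCGCGC lies before the start site. A match is a description of letters, and none of the data measured binding. The windows were rich in CpG in most genes, from 2 in 1 window of Dnmt1 to 57 in that of Tet2, against a median of 7 over all windows. Tet2 had more CpG than 99.8% of windows. Each E2F and NRF1 word searched holds CG, and both printed windows had 33 CpG. The shares over all windows given above are therefore not from windows of like CpG.

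Of the de novo enzymes, Dnmt3a differed most of the whole set. On chromosome 12 (3801559 to 3914443), it had 813 control reads against 1156 in the library labelled H19 knockdown. Its ratio was 1.42 (1.30 to 1.56), a distance from 0 reached by 1.61% of 4590 genes of like count. Genes of chromosome 12 were as a whole higher in that library, where 369 genes had a median of 0.28 and 91.1% lay above 0. The 22 counted genes within 5 Mb of Dnmt3a had a median of 0.27. With the chromosome median subtracted, the log2 ratio of Dnmt3a fell from 0.51 to 0.23, under the 1.2-fold limit, and 88.3% of the other genes of chromosome 12 lay below Dnmt3a. The chromosomes of the other members had medians between -0.10 and 0.06. RefSeq models Dnmt3aos and Gm31623 overlap Dnmt3a and were not counted in the tables.

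Dnmt3b, the paralog of Dnmt3a that is prominent in early embryos, was scarce. On chromosome 2 (153649411 to 153687730), it had 129 control reads against 102 in the library labelled H19 knockdown, a ratio of 0.791 whose interval, 0.603 to 1.03, includes 1. The 2 de novo genes thus lay on opposite sides of 0. Dnmt3a had 6.30 reads per Dnmt3b read in the control and 11.3 in the other library, a change of 1.80-fold with a counting interval of 1.35 to 2.39. This change includes the higher values of chromosome 12 as a whole, whose median was 0.28. With chromosome medians subtracted, the log2 ratios were 0.23 for Dnmt3a and -0.35 for Dnmt3b. The distance of Dnmt3b from 0 was equalled or exceeded by 36.1% of 2164 genes of like count. Of the reads of the 3 methyltransferases, Dnmt1 took 87.6% in the control (exact 95% interval 86.9 to 88.4) and 86.8% (86.1 to 87.5) in the library labelled H19 knockdown. Dnmt3b took 1.69% (1.42 to 2.01) and 1.07% (0.874 to 1.30). These intervals cover counting error only. Dnmt3l, the cofactor of de novo methylation in germ cells, was not listed in either table, which list no gene with fewer than 21 reads summed over both.

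**Figure D2:**
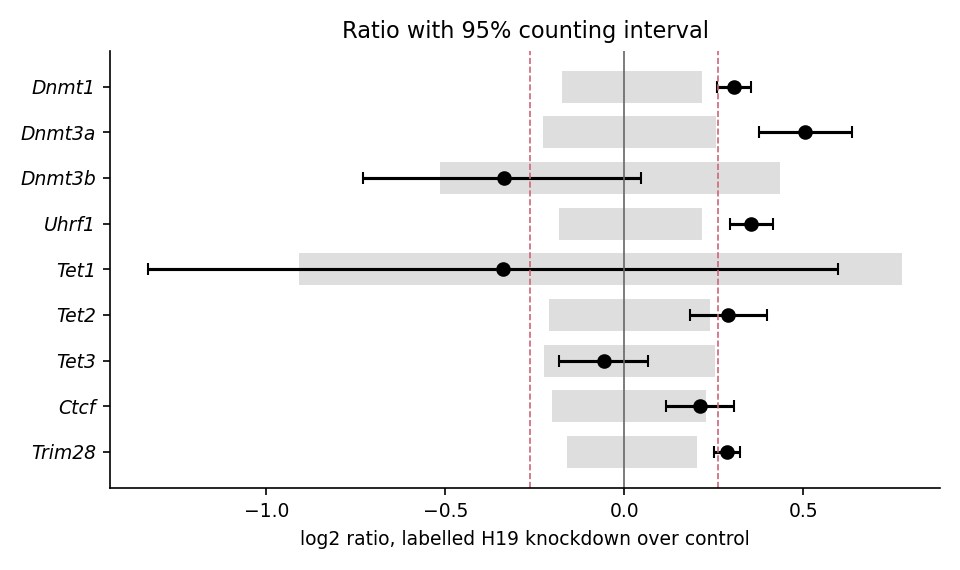
Log2 ratio (labelled H19 knockdown over control) of the 9 genes (points) with 95% counting intervals (bars), in which 1 count was added to each scaled count. Grey bands span genes of like count without the lowest and highest 10% and dashed lines mark 1.2-fold. Dnmt3a, Uhrf1, Dnmt1, Tet2 and Trim28 lie to the right of the bands, while Ctcf, Tet3, Dnmt3b and Tet1 lie inside them.

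The TET genes differed among themselves. Tet2, on chromosome 3 (133463677 to 133545136), had 1285 control reads against 1574 in the library labelled H19 knockdown, a ratio of 1.22 (1.14 to 1.32). Tet3, on chromosome 6 (83362373 to 83457208), had 1096 and 1054 reads, a ratio of 0.961 (0.882 to 1.05). Tet1, on chromosome 10 (62804570 to 62887469), had 23 and 18 reads, and with an interval of 0.398 to 1.51 a difference was not detectable at this depth. Tet2 was thus the 1 TET gene whose counting interval lay above 1. Its distance from 0 was equalled or exceeded by 10.8% of 4803 genes of like count. The number of Tet2 reads per Tet3 read was 1.17 in the control and 1.49 in the other library, a change of 1.27-fold (1.14 to 1.43). Chromosome 6, which holds Tet3, had a median of -0.10. With chromosome medians subtracted, the log2 ratios were 0.27 for Tet2 and 0.04 for Tet3. Among TET reads the share of Tet2 was 53.5% (51.4 to 55.5) and 59.5% (57.6 to 61.4), and that of Tet1 was 0.957% and 0.680%. The gene B230319C09Rik, which overlaps Tet3 in RefSeq, had 110 and 78 reads, and without a stated use of strand the reads of the pair cannot be told apart.

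Of the imprint-control factors, Trim28, the corepressor that links zinc finger proteins to histone methylation, was the most abundant member. On chromosome 7 (13024152 to 13031032), it had 10832 control reads against 13235 in the library labelled H19 knockdown, a ratio of 1.22 (1.19 to 1.25). Among 820 genes of like count 6.71% lay at least as far from 0. Ctcf, the insulator protein, on chromosome 8 (105636474 to 105682922), had 1718 and 1991 reads, a ratio of 1.16 (1.08 to 1.24). Its distance from 0 was equalled or exceeded by 21.0% of 4673 genes of like count. The difference between the 2 factors was small: Trim28 per Ctcf reads changed by 1.05-fold, with an interval of 0.983 to 1.13. Gm5915, a model that overlaps Ctcf in RefSeq, had 16 and 12 reads.

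Levels were compared between genes per length, as RPKM, which divides by library size and by length, here that of the longest GENCODE vM1 transcript. In the control the order was Trim28 at 98.8, Dnmt1 at 37.5, Uhrf1 at 32.8, Ctcf at 13.4, Tet2 at 4.14, Tet3 at 2.97, Dnmt3a at 2.48, Dnmt3b at 0.883 and Tet1 at 0.0474. In the library labelled H19 knockdown the values were 120.5, 46.4, 42.0, 15.6, 5.07, 2.86, 3.53, 0.698 and 0.0370 in that gene order. By this length Tet3 stood above Dnmt3a in the control and below it in the other library. Over the coding length alone Uhrf1 stood above Dnmt1, at 50.1 and 40.6 in the control, and Dnmt3a, at 8.82, above both Tet2 at 6.60 and Tet3 at 6.48. Per coding length Dnmt3a was above Tet3 in both libraries, with 12.5 against 6.22 in the one labelled H19 knockdown. The order of Dnmt1 and Uhrf1, and that of Dnmt3a among Tet2 and Tet3, thus depends on the length used. With either length Trim28 was highest, Ctcf came after Dnmt1 and Uhrf1, and Dnmt3b and Tet1 were lowest.

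**Figure D3:**
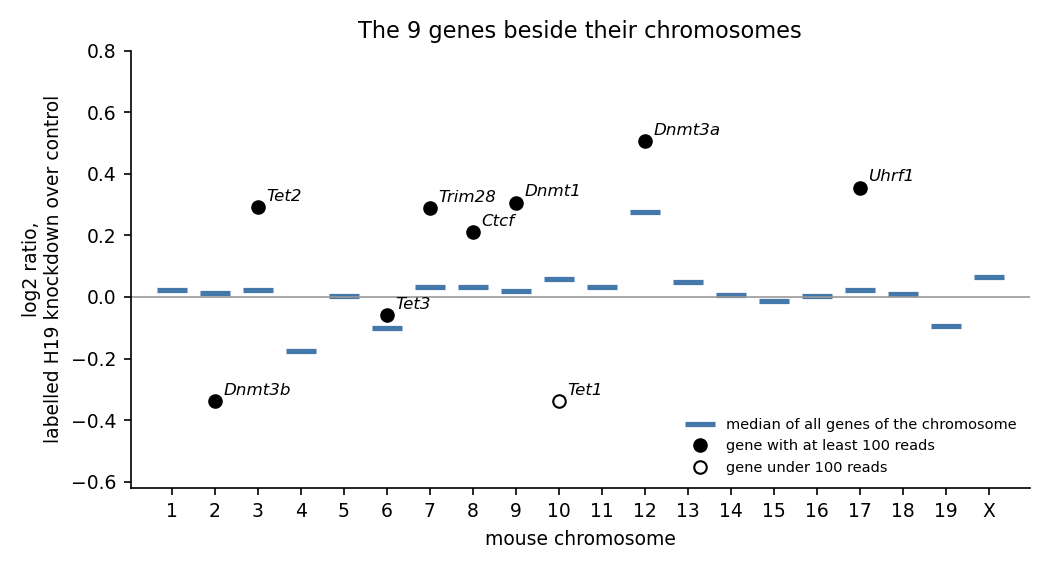
Log2 ratio of each gene (points, hollow under 100 reads) placed on its chromosome, with the median of all genes of that chromosome with at least 100 reads (short bars). Dnmt3a sits on chromosome 12, whose median was 0.28, while the chromosomes of the other 8 genes had medians from -0.10 to 0.06.

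The partners of these enzymes were taken from lists written with earlier results of these data known. Of 24 counted genes of maintenance and de novo methylation and of the methyl donor cycle, 20 were above 0, against 51.9% of all genes. At least 1.2-fold higher were 7, against 10.3% of all genes, and 0 were lower, against 9.89%. The median of the list was 0.16. The folate enzymes Mthfd1 (2721 and 3724 reads, log2 ratio 0.45) and Shmt1 (1405 and 1839, 0.39) were highest, with Mthfd1 also on chromosome 12 and at 0.18 once the median of that chromosome was subtracted. DNA ligase 1, Lig1, which seals replicated DNA and binds UHRF1, had 1149 and 1452 reads (0.34), and Cdca7, the activator of the remodeler HELLS, had 1024 and 1271 (0.31).

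Partners of the TET enzymes lay near the shares of all genes. Of 20 counted genes of oxidation and base excision repair 11 were above 0, where 51.9% of all genes were, with 2 at least 1.2-fold higher (10.3% of all genes), 1 lower (9.89%) and a median of 0.03. Idh2, which makes the TET cosubstrate 2-oxoglutarate in mitochondria, had 6520 and 8199 reads (0.33), and the abasic site nuclease Apex1 had 1631 and 2013 (0.30). Gadd45a was at -0.27 with 1169 and 971 reads, and the uracil glycosylase Smug1 at -0.26 with 1694 and 1413. Of 7 methyl-CpG readers 4 were above 0, with a median of 0.04. Among these Mbd1 had 2873 and 2280 reads (-0.33) and was the 1 reader past 1.2-fold, while Zbtb38 was at 0.22 and Mbd3 at 0.14.

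Partners of TRIM28 and other keepers of imprints had a median of 0.08 over 23 counted genes. Above 0 were 16, where 51.9% of all genes were. At least 1.2-fold higher were 4 (10.3% of all genes), and 1 was lower (9.89%). Arid4a, of chromosome 12, had 634 and 906 reads (0.51, or 0.24 above the median of that chromosome), Smchd1, a repressor of imprinted clusters and the inactive X, had 3547 and 4670 (0.40), and the remodeler Chd3 had 8878 and 11598 (0.38). Morc3 was lower, with 3653 and 2929 reads (-0.32). The zinc finger proteins that guide TRIM28 to imprints, chosen after their values were seen, differed little, with Zfp57 at 1113 and 1065 reads (-0.07) and Zfp445 at 3664 and 3668 (0.00). Of 19 counted CTCF and cohesin partners 17 were above 0, where 51.9% of all genes were, with a median of 0.15. Among them 4 were at least 1.2-fold higher (10.3% of all genes) and 0 lower (9.89%). Yy1, on chromosome 12, had 1945 and 2458 reads (0.34, or 0.06 above the median of that chromosome), Zfp143 694 and 847 (0.29), the cohesin subunit Smc1a 4305 and 5251 (0.29) and Kpna2 6730 and 8193 (0.28). Ctcfl, the germline paralog of Ctcf, was not listed.

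**Figure D4:**
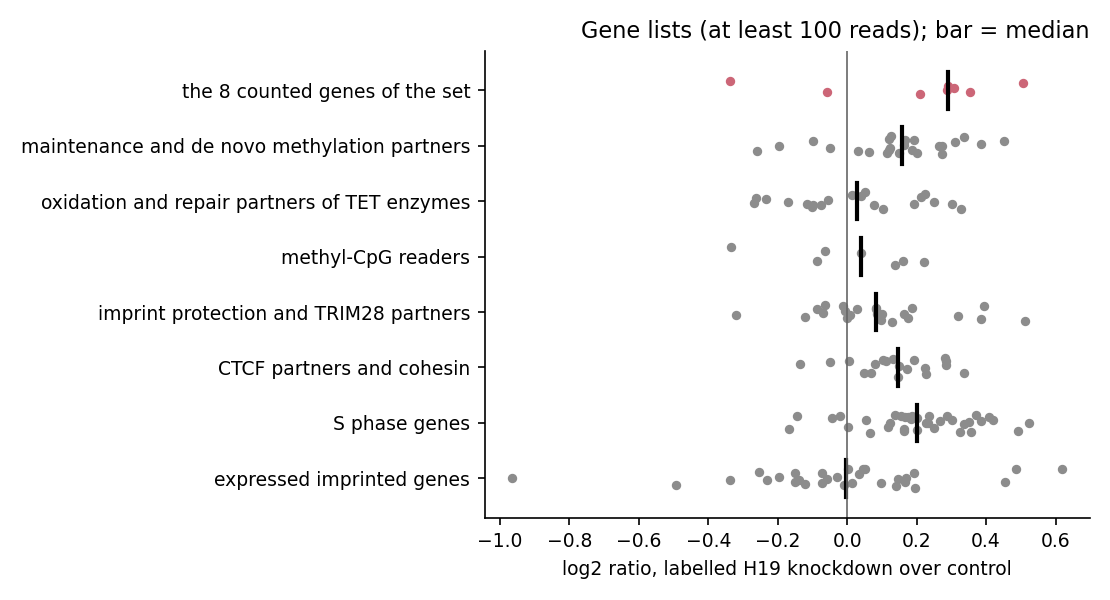
Log2 ratio of each gene with at least 100 reads (points) in 8 lists, with the median of each list (vertical bar). The set described here and the S phase genes have the highest medians, at 0.29 and 0.20, and expressed imprinted genes lie on both sides of 0.

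Of 36 S phase genes, many of them transcribed under E2F, 13 were at least 1.2-fold higher, against 10.3% of all genes, and 0 lower, against 9.89%. All 36 had at least 100 reads, and 32 were above 0 and 4 below, with a median of 0.20, where 51.9% of all genes were above 0. Pola1, of DNA polymerase alpha, had 1365 and 1965 reads (0.52), the helicase subunit Mcm4 3345 and 4708 (0.49), the origin licensing factor Cdc6 661 and 886 (0.42) and cyclin A2, Ccna2, 3458 and 4593 (0.41). The log2 ratios of Dnmt1 (0.31) and Uhrf1 (0.36) lie within the range of this list, -0.17 to 0.52. So do those of Dnmt3a (0.51), Tet2 (0.29), Trim28 (0.29), Ctcf (0.21) and Tet3 (-0.06), while Dnmt3b (-0.34) lies below it. The range thus does not set the maintenance pair apart from most of the set. The part of S phase in the ratios of the members was not tested. Some S phase genes, among them Lig1, Pcna and Tyms, are also in the list of methylation partners.

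Imprinted genes and germline genes are loci on which these enzymes act. Of 30 imprinted genes with at least 100 reads 15 were above and 15 below 0, with a median of -0.003, where 51.9% of all genes were above 0. Among them 3 were at least 1.2-fold higher (10.3% of all genes) and 3 lower (9.89%), counts near those shares. Peg3, a paternally expressed zinc finger gene, had 22525 and 31602 reads (0.49) and the thyroid hormone deiodinase Dio3, on chromosome 12, had 131 and 202 (0.62). Slc22a18, a maternally expressed neighbor of Cdkn1c, had 114 and 58 reads (-0.96), and Snrpn had 255 and 181 (-0.49). Igf2 was not listed. Of 20 germline genes that DNA methylation keeps silent in body cells 3 were listed, Tdrkh with 313 and 289 reads, Sycp1 with 75 and 57 and Brdt with 12 and 12. The log2 ratio of Tdrkh was -0.12, with a ratio interval of 0.783 to 1.09. Gene-body or promoter methylation was not measured in these libraries.

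The small RNA libraries give a second readout for miRNAs that are reported to target members. The mature sequences are shown for the miR-29 family (Dnmt3a and Dnmt3b), the miR-148 family (Dnmt1) and miR-22 (TET genes), from RefSeq (GRCm38.p6), which matched 12 of the 14 arms examined. Capitals mark the seed, bases 2 to 8, which is shared within each family.
miR-29a-3p: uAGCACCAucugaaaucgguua
miR-29b-3p: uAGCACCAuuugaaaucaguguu
miR-29c-3p: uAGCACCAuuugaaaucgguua
miR-148a-3p: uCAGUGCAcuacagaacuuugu
miR-148b-3p: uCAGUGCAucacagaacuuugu
miR-152-3p: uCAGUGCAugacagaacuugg
miR-22-3p: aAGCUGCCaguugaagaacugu
The longest 3′ UTR of each member in GENCODE vM1 was searched for the complement of each seed. The miR-148 complement occurred once in Dnmt1, at base 23 of a UTR of 315 bases, and once in Uhrf1, at base 613 of 984, and in none of the other 7 members. The miR-29 complement occurred 5 times in Dnmt3a, once in Dnmt3b, 7 times in Tet1, 5 times in Tet2 and 8 times in Tet3, and in none of Dnmt1, Uhrf1, Ctcf and Trim28. The miR-22 complement occurred 2 times each in Dnmt3a and Tet1 and 1 time each in Uhrf1, Tet2 and Tet3. It was in none of Dnmt1, Dnmt3b, Ctcf and Trim28. The complement of miR-342-3p, an arm reported for Dnmt1, occurred 0 times in Dnmt1, 2 times in Dnmt3a and 1 time each in Dnmt3b, Tet1 and Tet3. Those of miR-101a-3p, miR-101b-3p and miR-26a-5p were each in Dnmt3a and Tet2, and in none of Dnmt1, Dnmt3b, Uhrf1 and Trim28. Of all 18374 UTRs of at least 100 bases 13.3% hold the miR-148 complement, 13.4% that of miR-29 and 13.8% that of miR-22. For miR-342-3p, miR-101a-3p, miR-101b-3p and miR-26a-5p the shares are 12.7%, 9.27%, 11.9% and 9.28%. Longer UTRs hold more words by length alone, and that of Dnmt3a has 6696 bases. Examples are shown, with the match in capitals.
Dnmt1, miR-148 word: acccagagccccacgTGCACTGatg
Uhrf1, miR-148 word: ctggttttcagagagTGCACTGact
Dnmt3a, miR-29 word at base 825: atcccgacttcataaTGGTGCTttc
Dnmt3b, miR-29 word at base 228: tagagtagcccggcaTGGTGCTcat
Tet2, miR-22 word at base 1408: aaccgaaagagaataGGCAGCTggt
A match is a description, and targeting was not measured.

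Of the 14 arms reported to target members, all with at least 100 reads, 3 were at least 1.2-fold lower and 1 higher, where 17.6% and 20.3% of all 295 arms with at least 100 reads passed those limits. The median log2 ratio of the 14 arms was -0.11, and that of all 295 arms was 0.02. Of the 5 arms reported for Dnmt1, miR-148a-3p, miR-148b-3p and miR-152-3p share 1 seed, so they are not separate families. The arm miR-148a-3p had 3214 control reads against 3682 in the deeper library with the H19 hairpin, a ratio after scaling of 0.804 (0.767 to 0.843). For miR-148b-3p, the most abundant of the family, reads were 22725 and 28219, a ratio of 0.871 (0.856 to 0.887). The low count of miR-152-3p, 121 and 146 reads, gave a ratio of 0.848 whose interval of 0.661 to 1.09 includes 1. The arm miR-185-5p had 1065 and 1120 reads, a ratio of 0.738 (0.678 to 0.803), and miR-342-3p 195 and 299, a ratio of 1.08 (0.895 to 1.30).

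The miR-29 arms did not share a direction. The most abundant, miR-29a-3p, had 46214 and 65711 reads, a ratio of 0.998 (0.986 to 1.01) that lay at -0.05 on the log2 scale when scaled to totals, and miR-29c-3p was at 1.06 (0.987 to 1.14). Of these 3, miR-29b-3p was the 1 past 1.2-fold, lower with 2018 and 2135 reads and a ratio of 0.743 (0.698 to 0.789). Of the other arms reported for Dnmt3a, miR-143-3p was at 1.29 (1.18 to 1.41), miR-101a-3p at 0.924 and miR-101b-3p at 0.913. For the TET genes, miR-22-3p, with 1953410 and 3137270 reads, was at 1.13, miR-26a-5p at 1.01 and miR-26b-5p at 0.935. These values stand beside those of the mRNAs, from separate libraries, and their relation cannot be tested with 1 library per condition.

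**Figure D5:**
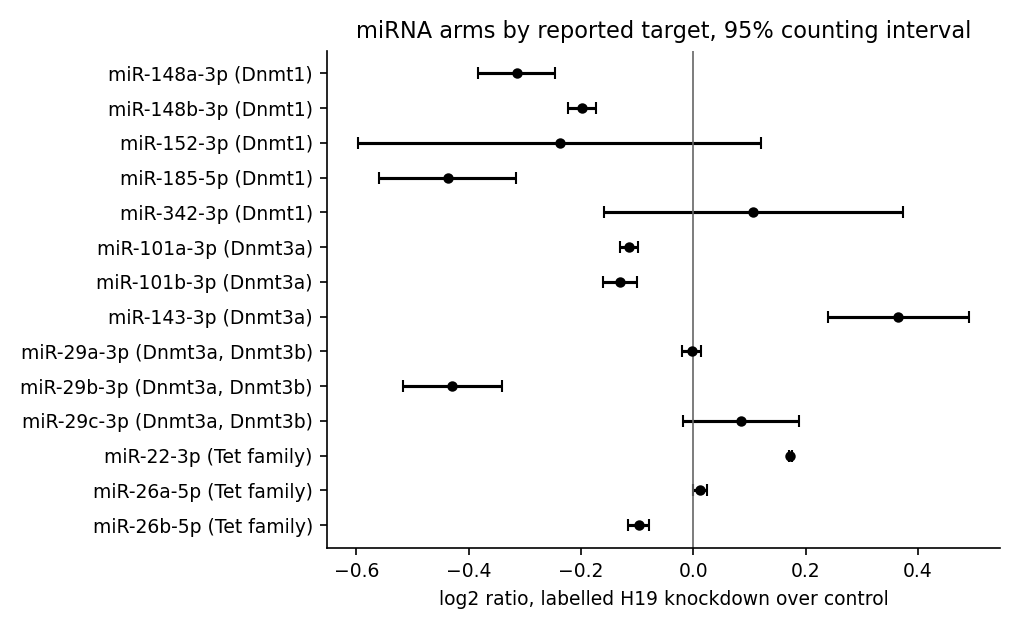
Log2 ratio (small RNA, labelled H19 knockdown over control) of 14 mature arms, grouped by reported target (in brackets), with 95% counting intervals. The arms miR-148a-3p, miR-148b-3p and miR-185-5p lie left of 0 with intervals that exclude it, and miR-26a-5p lies at 0.01.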

How the data were processed

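The tables hold raw counts per gene symbol (mRNA) and per precursor arm (small RNA), as deposited by the authors. mRNA reads were mapped to GRCm38 with STAR 2.5.2b, and small RNA reads 15 to 31 nucleotides long were compared with miRBase 21, as the series' design text states. Trimmomatic 0.36 is named in the submitters' processing notes. Counting program, annotation and use of strand: not given in the sources used here.

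Counts were scaled over the whole table with TMM effective library sizes (edgeR 4.0.16, R 4.3.3). The log2 ratio used 1 count added to each scaled count, with an exact conditional binomial 95% interval. The interval covers counting error only, since 1 library per group gives no spread between cultures. It treats reads as independent, which PCR copies are not, so it may be too narrow even for counting error. Ratios of 2 genes' reads used the conditional odds ratio and shares the Clopper-Pearson interval. With 1 library per group no test was possible. Mature arms were counted from the precursor copy with the most reads, over 7105897 and 10483889 arm reads.

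The members, the gene and miRNA lists and the limits were chosen with earlier results of these data known. The text names all members, H19, from each list up to 4 genes of largest absolute log2 ratio with at least 100 reads, and every listed arm, except genes that are not reported here. The search of 3′ UTRs, and the printing of markers by other rules, was added after the values were seen. Chromosomes came from RefSeq by symbol for 14589 of 16211 genes. Protein features planned for the members were not analysed here.

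On simulated counts for the 16211 genes of the mRNA comparison, holding counting error only, 100.0% of 200 genes altered 1.5-fold passed 1.2-fold. Of 6186 unaltered genes with at least 1000 reads 0 passed 1.2-fold, and of 11128 with at least 100 reads 245 did. The interval held 95.1% of true ratios. Alternatives were size factors of DESeq2 1.42.0, library totals, TMM computed after removing the 10 features with most reads, an added count of 0.5 or 5, other minimums and fold limits, the mean, chromosome medians subtracted and summed precursor copies. Python 3.11.15 with scipy 1.17.1, pandas 2.3.3, numpy 2.4.6 and matplotlib 3.10.9 was used.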

Additional observations from a re-analysis of the deposited data

Results flagged for a closer look

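Reads outside both mature arms were not used in the comparison of arms. At 4 precursors of the arms examined they were higher, relative to library size, in the library labelled H19 knockdown than with the control hairpin by more than counting error. The log2 ratio was 0.12 at mir-22 (3408 and 5276 reads), 0.27 at mir-26a-1 (764 and 1313), 0.29 at mir-26a-2 (737 and 1281) and 0.0875 at mir-29a (1926 and 2916). At 4 others such reads were lower by more than counting error, at -0.51 for mir-29b-1 (607 and 609 reads), -0.31 for mir-29b-2 (228 and 262), -0.29 for mir-26b (456 and 532) and -0.13 for mir-101b (16358 and 21370).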

How the results depend on the processing

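Other scalings and added counts gave 5 members higher and 1 lower past 1.2-fold. Of all genes, 9.01% to 10.4% were higher and 9.80% to 11.2% lower at these settings. The median of the members lay between 0.24 and 0.29 over the scalings, added counts, minimums and chromosome subtraction, and their mean was 0.20. With chromosome medians subtracted 3 members were higher, against 7.97% of all genes, and 1 lower, against 8.90%. Dnmt3a fell to 0.23 and Trim28 to 0.25, both under 1.2-fold, and Tet3 moved from -0.06 to 0.04, within its counting interval. With a minimum of 20 reads or none 2 members were lower, as Tet1 entered, against 16.3% and 17.6% of all genes. With 1000 reads 0 were lower, as Dnmt3b left, against 4.85% of all genes. At 1.5-fold 0 members were higher, against 1.31% of all genes, and 0 lower, against 1.39%. At 2-fold 0 were higher, against 0.202%, and 0 lower, against 0.105%. Among the members, 53 of 54 alternative log2 ratios stayed within the counting interval. Among the arms 72 of 84 did, and miR-29a-3p and miR-26a-5p, both near 0, stood at -0.05 and -0.04 when scaled to totals. That scaling also moved miR-148b-3p (-0.25), miR-101a-3p (-0.16), miR-101b-3p (-0.18) and miR-26b-5p (-0.15) out of their counting intervals. The very narrow interval of miR-22-3p did not hold several of its alternatives, which lay from 0.12 to 0.19. No replicate was left out, as each group had 1. Depth limits Tet1, with 23 and 18 reads, and Dnmt3b, with 129 and 102.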
